A study of Mus musculus with 23 samples.

Results

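Fgfr2 encodes fibroblast growth factor receptor 2, and 7 of the 23 mammary tumors of the series carried its transcript at a log2(FPKM + 1) of 1 or more. These tumors are called Fgfr2-expressing, and the other 16 Fgfr2-negative. The groups were chosen by the measured Fgfr2 value and not by any label, so Fgfr2 itself was left out of every test. All tumors came from mice with Brca1 deficiency in the mammary gland, a primary tumor each, and the labels give the strain only as mixed. Per the study's methods, Cre under the MMTV promoter, which is active in mammary epithelium, deleted floxed Brca1 (MMTV-Cre; Brca1 fl/fl), in part of the mice together with 1 floxed Trp53 allele (Trp53 fl/+), on a C57BL/6 and 129/Sv background. The labels give neither the Trp53 genotype of a tumor nor the sequencing platform that read it, and neither was used here. A figure of the study shows the genotype of its 23 tumors as a picture, which was not used here. For some tumors the text of the study's supplement also gives the genotype. It names X9387T and X147T as Brca1 mutant, and X4351T and X731T as Brca1 and Trp53 double mutant.

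FGF receptors are receptor tyrosine kinases. A ligand binds together with heparan sulfate, the receptors pair, and adaptors such as FRS2 pass the signal to the RAS-ERK, PI3K-AKT and phospholipase C pathways, while Sprouty and DUSP proteins feed back on it. In the mammary gland the epithelial splice form of FGFR2 receives FGF7 and FGF10 from the stroma and is needed for branching and for the upkeep of the epithelium. The splicing factors ESRP1 and ESRP2 favor that form. The table has 1 value per gene, so splice forms of Fgfr2 were not separated, and no sequence bears on the values below.

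Fgfr2 (chromosome 7, 130162451 to 130266808 on GRCm38) was unevenly spread over the tumors that chose the group. Its level was 5.33 in X149T2, 5.29 in X731T and 4.62 in X1515T, which are 39.3, 38.2 and 23.6 FPKM. X92T had a level of 2.92, or 6.57 FPKM. The last 3 lay just inside the threshold, with levels of 1.37 in X1418T, 1.36 in X154T and 1.13 in X1310T2. Just outside it were X493T2 with 0.58, X493T1 with 0.47 and X147T with 0.05. Fgfr2 was listed at 0 in the other 13 Fgfr2-negative tumors. Whether an exact 0 means absence is not known here. There were 54 genes with a median level of 5 or more that were listed at 0 in some tumor. They include the epithelial gene Epcam, at 0 in X520T, so that count cannot tell a failed estimate from absence. In whole tumor pieces, fewer cells with a transcript and less transcript per cell cannot be told apart.

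**Figure D1:**
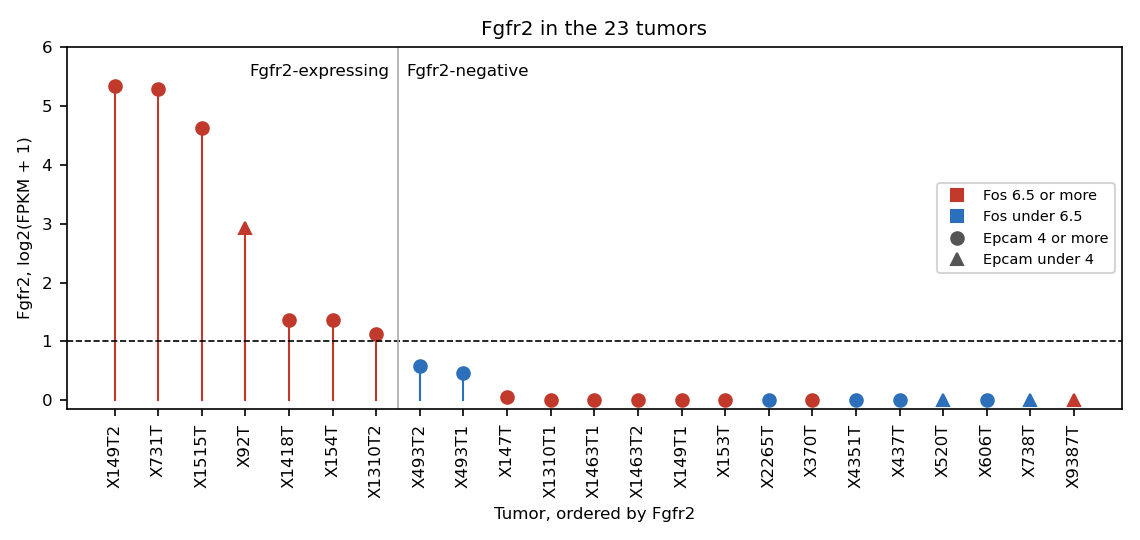
Fgfr2 level, as log2(FPKM + 1), in each of the 23 tumors, ordered by that level, with Fgfr2-expressing tumors left of the gray line; the dashed line is the threshold of 1, color gives the Fos state and shape the Epcam state. 3 tumors sit at 4.62 or above, X92T at 2.92 and 3 between 1.13 and 1.37, and all 7 Fgfr2-expressing tumors are in the Fos state of 6.5 or more.

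Other features of the tumors ran along with the split. Fos, an immediate-early gene of the AP-1 family, lay between 8.16 and 9.99 in the 7 Fgfr2-expressing tumors. Of the 16 Fgfr2-negative tumors, 8 had Fos at 6.5 or more and 8 under it. Epcam, an epithelial adhesion gene, was at 4 or more in 19 tumors, 6 Fgfr2-expressing and 13 Fgfr2-negative, and under 4 in X92T, at 3.10, and in 3 Fgfr2-negative tumors. The comparison was therefore run over all 23 tumors and again over these 19. Both Fgfr2-expressing and Fgfr2-negative tumors of the 19 had the epithelial transcripts a mammary carcinoma carries: Krt8, a luminal keratin, had a lowest, median and highest level of 7.94, 10.02 and 10.59 in the 6 and 7.42, 9.66 and 10.87 in the 13. Depth is unknown for FPKM. Between 11829 and 12863 genes per tumor were above 0, and the summed FPKM ran from 387531 to 1677863, the highest in X149T2, 72.7% of which fell to short non-coding RNA genes. Levels below are log2(FPKM + 1), and differences are Fgfr2-expressing minus Fgfr2-negative on that scale, which understates the change of low genes.

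Fgfr2-expressing tumors had more transcript of basal and squamous keratinocyte genes, of the ligand genes Ereg and Bmp7 and of the Notch ligand Jag2, and less of Lpcat2 and Bmf. Of 12040 genes tested over the 23 tumors with limma at a Benjamini-Hochberg adjusted p of 0.05, 98 were higher (0.814%) and 123 lower (1.02%). Over the 19 tumors with Epcam, 123 were higher (1.02%) and 107 lower (0.889%). At an unadjusted p of 0.05, 820 (6.81%) were higher and 1827 (15.2%) lower over 23 tumors, and 907 (7.53%) and 1595 (13.2%) over 19. Of the higher genes, 32 of 98 and 36 of 123 had a mean under 1 FPKM in Fgfr2-negative tumors, and so met the filter on low values only through Fgfr2-expressing tumors. Cdh3, Col17a1, Krtdap, Wnt11, Tbx3, Snai2, Mreg and Vgll3, described below, are among them. Their calls are a description and no support. Of the lower genes, 6 of 123 and 7 of 107, Prtn3 included, met it only through Fgfr2-negative tumors, and their calls too are a description. Both comparisons shared 67 of the higher genes, 68.4% of the first list and 54.5% of the second, and 52 of the lower ones, 42.3% and 48.6%. The 2 comparisons share 19 tumors, so this overlap is not independent support. The median difference over all genes tested was -0.19 over 23 tumors and -0.16 over 19. Rescaling each tumor to its FPKM sum without short non-coding RNA genes took these medians to -0.05 and -0.04 and the calls to 95 higher and 32 lower over 23 tumors, and 135 higher and 57 lower over 19. Higher genes were thus 74.8% of calls after rescaling, against 44.3% before, over 23 tumors, and 70.3% against 53.5% over 19.

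Nearly all of these calls were lost once the Fos state was part of the fit. With Fos state as a covariate, limma called no gene over 23 tumors (0%, lowest adjusted p 0.137), with 577 higher and 575 lower at an unadjusted p of 0.05. Over 19 tumors that fit called 1 gene (0.00831%), Mreg, with an adjusted p of 0.0238. Mreg met the filter on low values only through Fgfr2-expressing tumors, so that call is a description. Among tumors with Fos at 6.5 or more alone, no gene was called (0% in both comparisons), with 531 higher and 565 lower at the unadjusted p in the first and 669 and 624 in the second. The differences themselves moved less. The genes called higher over 23 tumors had a median difference of 1.73 with no covariate and 1.53 with it, and the genes called lower -1.01 and -0.79. All of them kept their sign. They were picked for their difference in these same tumors, so the medians and signs are a description and no test. Since every Fgfr2-expressing tumor was in the high Fos state, these fits set the 7 tumors against the 8 Fgfr2-negative tumors of that state, or 6 against 7 with Epcam.

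Basal and myoepithelial genes, which mark the outer cell layer of the mammary duct, were the lineage list with the most calls over 23 tumors, and had as many as keratinized epithelium over 19. Of 21 tested, 5 were higher and none lower over 23 tumors (Krt5, Trp63, Cdh3, Col17a1 and Jag2). Of all genes, 0.814% were higher there. Cdh3 and Col17a1 entered the test only through Fgfr2-expressing tumors. Over 19 tumors 5 were higher, as 1.02% of all genes were, with Krt17 called and Trp63 not (adjusted p = 0.061, limma). The median difference over the 21 genes was 1.37 over 23 tumors, 1.44 over 19 and 1.60 over 19 with Fos state, beside -0.19, -0.16 and -0.01 over all genes. The members' summed FPKM ran from 164 to 3341, median 2274, in Fgfr2-expressing tumors, against 88.5 to 865, median 417, in Fgfr2-negative tumors.

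Krt5 (chromosome 15, 101707069 to 101712905), the keratin of basal cells, had levels of 9.34, 8.0 and 9.41 in X149T2, X731T and X1515T, the 3 tumors with the most Fgfr2. It was at 6.05 in X154T, 4.34 in X1310T2 and 1.32 in X1418T and listed at 0 in X92T. The lowest, median and highest levels in the 16 Fgfr2-negative tumors were 0, 1.07 and 4.62, so 4 Fgfr2-expressing tumors lay above all of them and the groups overlapped. The difference was 4.27 ± 0.98 (SE; limma adjusted p = 0.031) over 23 tumors and 4.90 ± 0.93 over 19 (limma adjusted p = 0.017, and 0.11 with Fos state). Krt17, another basal keratin, reached 9.79, 9.0, 9.89 and 9.88 in X149T2, X731T, X1515T and X154T, but 6.71, 3.01 and 1.32 in X1310T2, X1418T and X92T. Its highest level in an Fgfr2-negative tumor was 6.26, and it differed by 3.63 ± 0.81 over 19 tumors (limma adjusted p = 0.023). Krt14, the partner of Krt5, had a lowest, median and highest level of 4.10, 8.85 and 9.84 in the 7 tumors and 0.84, 4.88 and 8.57 in the 16, a difference of 3.16 ± 0.98 that did not pass (limma adjusted p = 0.083).

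Trp63, the transcription factor p63 that basal cells depend on, ran from 0 to 5.86 with a median of 2.74 in Fgfr2-expressing tumors and from 0 to 3.50 with a median of 0.13 in Fgfr2-negative tumors. Its difference over 23 tumors was 2.39 ± 0.59 (limma adjusted p = 0.041). Col17a1, a collagen of the hemidesmosome, was at 5.58, 5.92 and 6.22 in the 3 tumors with the most Fgfr2 and at 3.19 and 1.5 in X154T and X1310T2. It was listed at 0 in X92T and X1418T and in 11 Fgfr2-negative tumors, whose highest level was 1.09. Cdh3, the gene of P-cadherin, differed by 2.25 ± 0.53 over 23 tumors and 2.61 ± 0.55 over 19 (limma adjusted p = 0.033 and 0.021). Acta2, the smooth muscle actin of contractile myoepithelium, had medians of 6.08 and 5.08 in Fgfr2-expressing and Fgfr2-negative tumors and did not pass (limma adjusted p = 0.13 over 23 tumors).

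Genes of keratinized, squamous epithelium stood beside them. Of 13 tested, 3 were higher over 23 tumors (Sprr1a, Sprr1b and Krtdap) and 5 over 19 (also Krt6a and Krt16), with none lower. Of all genes, 0.814% and 1.02% were higher. Krtdap entered the test only through Fgfr2-expressing tumors. The median difference over the 13 genes was 1.93 over 23 tumors and 2.26 over 19, both without and with the Fos state. A median of 13 is the difference of a single gene, so equal medians do not show that the list was unmoved. Over 19 tumors all 13 had a positive difference, beside 4583 of all 12040 genes. With Fos state 11 did, beside 5966. Sprr1b (chromosome 3, 92436808 to 92438817), a precursor of the cornified envelope, was at 7.45 in X154T, 7.37 in X1515T, 5.07 in X1310T2, 4.30 in X149T2, 3.84 in X731T and 1.72 in X92T, and listed at 0 in X1418T. It was listed at 0 in 13 Fgfr2-negative tumors and stood at 5.35 in X520T, 0.69 in X738T and 0.32 in X149T1, the first 2 of which had Epcam under 4. Its difference was 3.85 ± 0.78 over 23 tumors and 4.65 ± 0.68 over 19 (limma adjusted p = 0.020 and 0.0046, and 0.051 over 19 with Fos state). Sprr1a differed by 3.69 ± 0.83 and 4.12 ± 0.83, and Krt6a, a keratin of stressed epithelium, by 3.83 ± 0.95 over 19 tumors (limma adjusted p = 0.029, 0.020 and 0.040). Aqp3, the water and glycerol channel of keratinocytes, had a lowest, median and highest level of 1.80, 5.58 and 8.50 in the 6 tumors with Epcam and 0, 0.08 and 2.87 in the 13, with 5 of the 6 above all 13. Keratins, and the Sprr genes, are close in sequence, so reads of related genes may have been split among them.

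**Figure D2:**
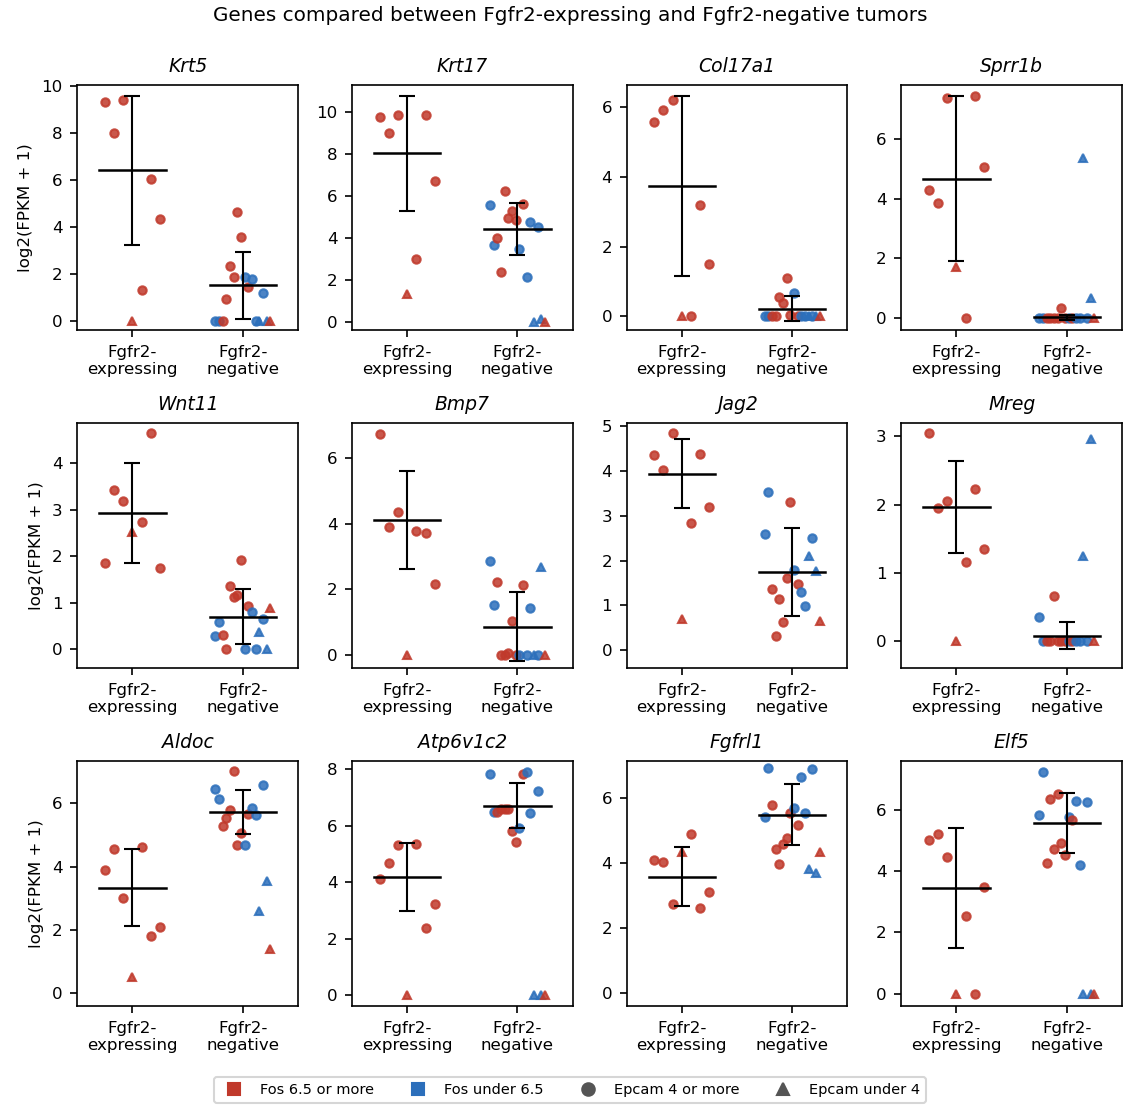
Level of 12 genes, as log2(FPKM + 1), in every tumor, Fgfr2-expressing left and Fgfr2-negative right; points are tumors colored by Fos state and shaped by Epcam state, and the lines give mean and SD over the tumors with Epcam of 4 or more. Krt5 reaches 9.41 in Fgfr2-expressing tumors and 4.62 in Fgfr2-negative tumors, Mreg and Atp6v1c2 do not overlap among tumors with Epcam, and X92T lies low for most of the epithelial genes.

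Several ligand genes, gathered here after their values were seen, were called. Ereg, the epidermal growth factor receptor ligand epiregulin, had a lowest, median and highest level of 1.45, 4.53 and 6.31 in the 7 tumors and 0, 0 and 4.37 in the 16, where X370T alone exceeded 2.39. It differed by 3.65 ± 0.60 over 23 tumors (limma adjusted p = 0.011, and 0.14 with Fos state). Areg, the related ligand amphiregulin, passed over 19 tumors alone, with a difference of 3.19 ± 0.79 (limma adjusted p = 0.039, and 0.27 with Fos state). Wnt11 (chromosome 7, 98835084 to 98854747), a ligand mostly tied to non-canonical WNT signaling, was at 1.74 to 4.64 with a median of 2.73 in Fgfr2-expressing tumors and 0 to 1.91 with a median of 0.62 in Fgfr2-negative tumors. Only X149T2, at 1.86, and X1310T2, at 1.74, lay below the highest Fgfr2-negative tumor, X153T. Wnt11 had the lowest adjusted p of the 23-tumor fit, 0.0059, with a difference of 2.22 ± 0.33. It remained past the threshold without each tumor in turn in both comparisons, but not with Fos state (limma adjusted p = 0.14 over 23 tumors and 0.072 over 19). Wnt11 entered the test only through Fgfr2-expressing tumors, so these results are a description and no support.

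Wnt10a, an epithelial WNT ligand, differed by 2.59 ± 0.57 over 19 tumors (limma adjusted p = 0.023). It and Wnt11, which entered only through Fgfr2-expressing tumors, were the only genes called of 22 WNT pathway genes tested there. Of all genes, 1.02% were called higher over 19 tumors and 0.814% over 23. Bmp7 (chromosome 2, 172868012 to 172940321), a bone morphogenetic protein, was at 6.74 in X149T2, 2.15 to 4.35 in the other 5 tumors with Epcam and listed at 0 in X92T. Its levels in Fgfr2-negative tumors ran from 0 to 2.86 with a median of 0.03. The difference was 2.65 ± 0.61 over 23 tumors and 3.24 ± 0.55 over 19 (limma adjusted p = 0.032 and 0.0099, and 0.053 over 19 with Fos state). It was the 1 gene called of 12 in the Hedgehog and BMP list in either comparison. Jag2, a Notch ligand, was at 2.84 to 4.86 with a median of 4.19 in the 6 tumors and 0.33 to 3.53 with a median of 1.48 in the 13, a difference of 2.2 ± 0.43 (limma adjusted p = 0.017). Jag1, its relative, passed over 23 tumors with a difference of 1.75 (limma adjusted p = 0.049), and no other of the 15 Notch pathway genes tested was called.

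Tbx3, a T-box factor of mammary development, was listed at 0 in none of the 7 tumors, which ran from 0.78 to 3.61, and in 10 of the 16, which reached 2.68. The difference was 1.72 ± 0.43 over 23 tumors and 1.89 ± 0.42 over 19 (limma adjusted p = 0.041 and 0.023). Klf5, a factor of basal and proliferating epithelium, passed over 23 tumors with a difference of 1.65 ± 0.44 (limma adjusted p = 0.049) and missed over 19 (limma adjusted p = 0.090). The cytokine gene Il6 and the synaptic immediate-early gene Arc were among the 10 largest over 23 tumors, with differences of 3.38 ± 0.76 and 3.85 ± 1.00. Both missed over 19 tumors (limma adjusted p = 0.063 and 0.10) and shrank to 1.62 and 1.01 there with Fos state.

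Of the FGF pathway genes tested, only Fgfrl1, Sdc1 and Fosl1 were called, all over 19 tumors. In that comparison 1.02% of all genes were called higher and 0.889% lower. Per transcript length, as FPKM is scaled, Fgfr1 was the most abundant receptor gene in every tumor but X437T, where Fgfrl1 was higher, with a lowest, median and highest level of 5.94, 6.56 and 8.50 in the 7 and 5.38, 6.72 and 8.23 in the 16. Its difference was 0.12 ± 0.35 over 23 tumors and -0.17 ± 0.36 over 19 (limma adjusted p = 0.86 and 0.81). Fgfr3 had medians of 2.62 and 0.40, at 2.62 to 4.40 in X149T2, X731T, X1515T and X1418T, at 1.24 in X92T, at 0.10 in X154T and listed at 0 in X1310T2, but X493T1 and X606T among Fgfr2-negative tumors also reached 2.74 and 2.57. It did not pass (difference 1.25 ± 0.52, limma adjusted p = 0.17 over 23 tumors). Fgfr4 was above 0 in X1418T alone, at 1.06, and was under the mean FPKM of 1 that a gene needed to be tested.

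Fgfrl1 (chromosome 5, 108694229 to 108706950), a family member without a kinase domain, went the other way. Its level was 2.61 to 4.90 with a median of 3.57 in the 6 Fgfr2-expressing tumors with Epcam and 3.98 to 6.94 with a median of 5.53 in the 13 Fgfr2-negative tumors. The groups overlapped, with X149T2, X731T and X1418T above the lowest Fgfr2-negative tumor. The difference was -1.91 ± 0.42 (limma adjusted p = 0.023, and 0.19 with Fos state), and -1.51 ± 0.43 over 23 tumors, which did not pass (limma adjusted p = 0.062).

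Of 22 FGF ligand genes listed, 9 had values and only Fgf1 was abundant enough to be tested. Fgf1 had medians of 1.53 and 1.48 in Fgfr2-expressing and Fgfr2-negative tumors, a difference of -0.01 ± 0.48 over 23 tumors. Fgf7, the stromal ligand of the epithelial receptor form, was at 1.90 to 2.82 in X1515T, X92T, X1418T and X154T, at 0.13 in X1310T2 and listed at 0 in X149T2 and X731T. In Fgfr2-negative tumors it was listed at 0 in 11 and reached 1.67. Fgf15, an endocrine FGF of the mouse gut, was at 3.66, 2.46 and 1.95 in X149T2, X731T and X1418T and at most 0.58 in the 16 Fgfr2-negative tumors, 15 of which were listed at 0. Fgf2, the basic FGF, was at 2.92 in X92T and at 2.36 in X9387T, both with Epcam under 4, and at 1.87 or less elsewhere.

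Of the co-receptor, adaptor and response genes, Sdc1 and Fosl1 passed over 19 tumors and none over 23. Of all genes, 1.02% were called higher over 19 tumors and 0.814% over 23. Of 21 co-receptor and heparan sulfate genes tested, none was called over 23 tumors (5 higher and 1 lower at an unadjusted limma p of 0.05, where 6.81% and 15.2% of all genes were) and 1, Sdc1, over 19. Sdc1, the epithelial proteoglycan syndecan-1, was at 7.10 to 8.57 with a median of 7.94 in the 6 tumors and 4.02 to 7.13 with a median of 6.0 in the 13, so that a single Fgfr2-negative tumor, X1463T1, overlapped with the lowest Fgfr2-expressing tumor. The difference was 2.05 ± 0.41 (limma adjusted p = 0.019, and 0.083 with Fos state). None of the 24 adaptor and signal protein genes was called in either comparison, with 1 higher and none lower at an unadjusted limma p of 0.05 over 23 tumors, and their median differences were -0.02 and 0.02.

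Of 18 FGF and ERK response and feedback genes tested, none was called over 23 tumors (3 higher and 2 lower at an unadjusted p of 0.05, beside the same 6.81% and 15.2%) and 1, Fosl1, over 19. Fosl1, an AP-1 subunit gene, was at 4.13 to 5.56 in every Fgfr2-expressing tumor but X149T2, which had 1.16. Its levels in the 16 Fgfr2-negative tumors ran from 0 to 5.21 with a median of 1.38, highest in X9387T, X738T and X520T, the 3 with Epcam under 4, and in X370T. Over 19 tumors it differed by 2.92 ± 0.64 (limma adjusted p = 0.023, and 0.175 with Fos state). Dusp6, an ERK phosphatase gene, had medians of 6.39 and 6.41, and Spry2 5.29 and 4.53, with differences over 23 tumors of 0.23 ± 0.34 and 0.44 ± 0.42. Etv5, an ETS factor gene responsive to FGF, had a median of 3.63 in Fgfr2-expressing tumors, against 5.37 in Fgfr2-negative tumors, and ran from 1.18 in X154T to 6.85 in X149T2 within the 7. Its difference of -1.57 ± 0.55 did not pass (limma adjusted p = 0.11). The median difference over the 18 genes was 0.31 over 23 tumors, 0.17 over 19 and -0.07 over 19 with Fos state.

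**Figure D3:**
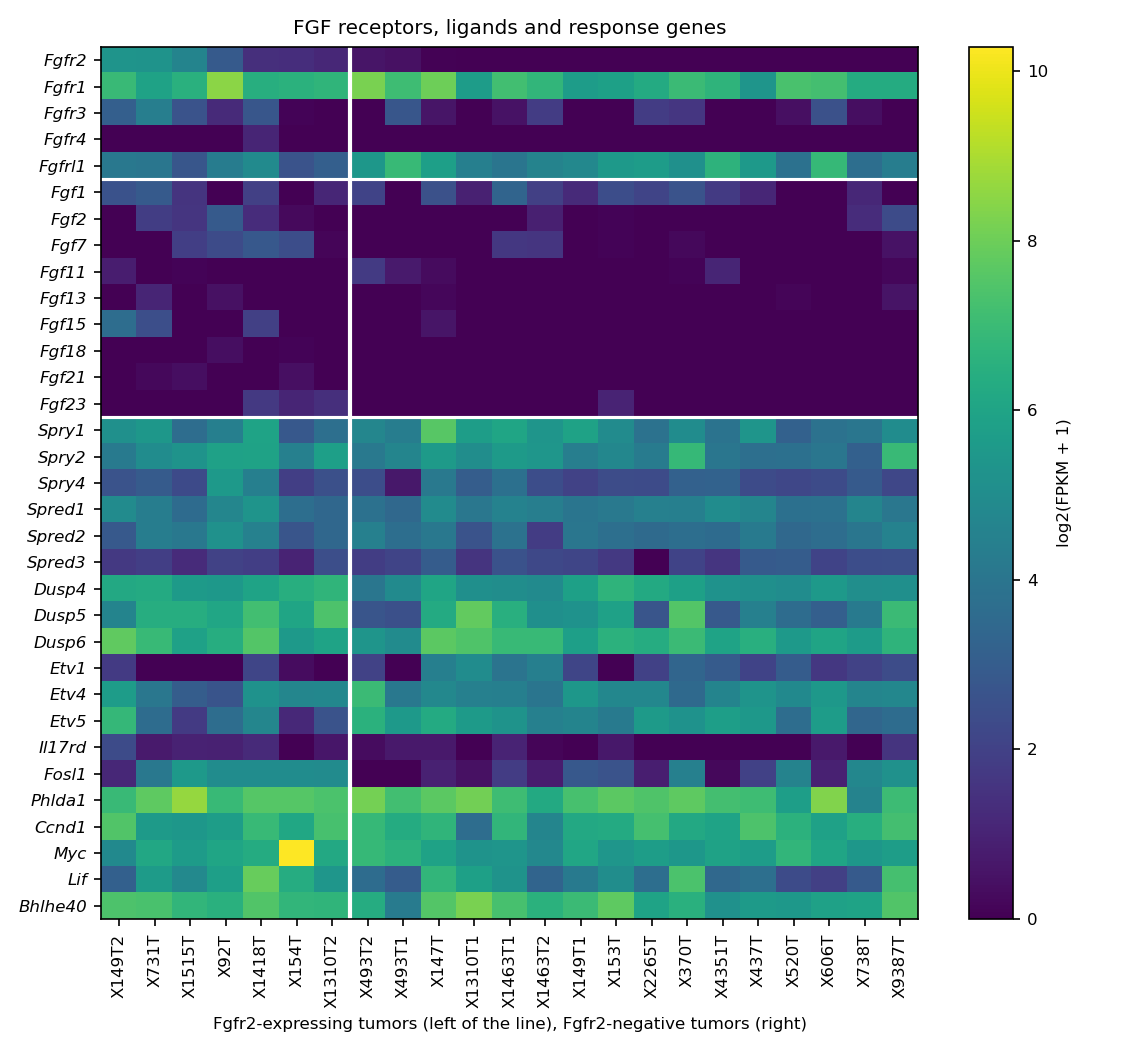
Heat map of levels, as log2(FPKM + 1), of FGF receptor genes (top block), FGF ligand genes (middle) and FGF and ERK response genes (bottom) in all 23 tumors, in order of Fgfr2, with Fgfr2-expressing tumors left of the white line. Fgfr1 is high on both sides of the line, most ligands are dark throughout, and Myc in X154T, at 10.28, is the brightest cell.

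Lower genes were of mixed function. Prtn3, a serine protease gene of neutrophil granules, was listed at 0 in 4 of the 7 tumors and reached 0.89 in X1418T, while the 16 Fgfr2-negative tumors ran from 0.40 to 6.25 with a median of 2.71, a difference of -2.47 ± 0.63 (limma adjusted p = 0.045). Smoc1, a calcium-binding matrix protein gene, was listed at 0 in 3 of the 7 tumors but was at 3.71, 3.90 and 4.29 in X731T, X154T and X92T, within the range of 2.37 to 5.82 of the 16 (difference -2.18 ± 0.58, limma adjusted p = 0.049). Bmf, a pro-apoptotic BH3-only gene, had a lowest, median and highest level of 0.30, 0.78 and 2.60 in the 7 and 0.97, 3.04 and 4.10 in the 16, and differed by -1.85 ± 0.39 (limma adjusted p = 0.022). Lpcat2, a phospholipid acyltransferase gene, had medians of 2.33 and 4.30 and differed by -1.69 ± 0.32 (limma adjusted p = 0.016). None of these 4 passed with Fos state over 23 tumors (limma adjusted p = 0.241, 0.306, 0.231 and 0.165).

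Over the 19 tumors, Aldoc and Atp6v1c2 had no overlap. Aldoc (chromosome 11, 78323073 to 78327781), an aldolase of glycolysis, was at 1.83 to 4.62 in the 6 and 4.68 to 7.02 in the 13, a difference of -2.39 ± 0.41. Atp6v1c2 (chromosome 12, 17284721 to 17325386), a subunit of the vacuolar proton pump, was at 2.39 to 5.36 in the 6 and 5.43 to 7.92 in the 13, a difference of -2.53 ± 0.42. Both had a limma adjusted p of 0.0099, and 0.070 with Fos state. In the 4 tumors with Epcam under 4, Aldoc was at 0.51 in X92T and 1.40 to 3.55 in the 3 Fgfr2-negative tumors, and Atp6v1c2 was listed at 0 in all 4, and neither gene passed over 23 tumors (limma adjusted p = 0.068 and 0.295). Col9a1, a cartilage collagen gene, had the largest negative difference among genes called over 19 tumors, -3.23 ± 0.83 (limma adjusted p = 0.046).

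Markers of the luminal progenitor, the inner-layer cell from which Brca1-deficient tumors are held to arise, were not called. None of 16 was called in either comparison, with none higher and 5 lower at an unadjusted limma p of 0.05 over 19 tumors, where 13.2% of all genes were lower, and 1 lower over 23, where 15.2% were. Of the 16 genes, 3 had a positive difference in each comparison, beside 4336 over 23 tumors and 4583 over 19 of all 12040 genes. The list's median difference over 19 tumors was -1.14, and -1.27 with Fos state. Elf5, the ETS factor of these cells, was at 5.0, 5.22 and 4.44 in the 3 tumors with the most Fgfr2, at 3.47 and 2.55 in X1310T2 and X1418T and listed at 0 in X154T and X92T. In the 13 Fgfr2-negative tumors with Epcam it was at 4.18 to 7.24, so the 3 tumors with the most Fgfr2 lay inside that range (difference -2.12 ± 0.60, limma adjusted p = 0.066). Kit, a receptor tyrosine kinase gene, had medians of 3.80 and 5.36 over the same tumors, with a difference of -1.93 ± 0.54 (limma adjusted p = 0.063). Of 8 hormone-sensing genes tested, only Areg was called, over 19 tumors, where 1.02% of all genes were called higher. Over 19 tumors 6 of the 8 had a positive difference, beside 4583 of all 12040 genes. There, 4 were higher at an unadjusted limma p of 0.05, as 7.53% of all genes were. Their median difference was 1.40, and 1.25 with Fos state. The estrogen receptor gene Esr1, which defines that lineage, was at 2.22 in X731T and listed at 0 in the other 6 Fgfr2-expressing tumors, and at most 0.36 in Fgfr2-negative tumors.

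Of 25 epithelial splicing and transcription regulators tested, Klf5 and Tbx3 were called higher over 23 tumors and Tbx3 over 19. Of all genes, 0.814% and 1.02% were. Esrp1 had a lowest, median and highest level of 4.14, 5.05 and 7.0 in the 6 tumors and 4.65, 5.29 and 6.30 in the 13, and Cdh1, the E-cadherin gene, 5.64, 6.54 and 8.23 against 4.73, 6.13 and 7.55. Their differences were -0.16 ± 0.33 and 0.51 ± 0.39 (limma adjusted p = 0.80 and 0.46). X92T, the fourth tumor in order of Fgfr2, had Esrp1 and Esrp2 listed at 0 and Cdh1 at 1.45. Of 26 epithelial adhesion and luminal keratin genes, none was called over 23 tumors and 1 was lower over 19, where 0.889% of all genes were. It was Marveld3, a tight junction gene (difference -1.55 ± 0.32, limma adjusted p = 0.021). Of 19 mesenchymal genes, 2 were higher in each comparison, among them Snai2 in both and Prrx1 over 19 tumors, while Vim, the vimentin gene, had medians of 9.18 and 8.27 and a difference of 0.45 ± 0.54 over 23 tumors. Beside 4583 of the 12040 genes tested, all 19 genes had a positive difference over the tumors with Epcam. Their median was 0.97, and 0.75 with Fos state, beside -0.16 and -0.01 over all genes. Snai2, the factor Slug that is also found in basal epithelium, differed by 2.06 ± 0.46 over 23 tumors (limma adjusted p = 0.027).

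Immediate-early, heat shock and non-epithelial genes stood beside these results. Over all genes, limma called 0.814% higher over 23 tumors and 1.02% over 19. Of 23 immediate-early genes, Klf4 alone was called in each comparison, but 17 were higher at an unadjusted p of 0.05 over 23 tumors, as 6.81% of all genes were, and their summed FPKM was 4141 to 8261 in the 7 tumors against 861 to 8466 in the 16. The median difference of these genes over 19 tumors was 1.22, and 0.15 with Fos state. Fos is itself an immediate-early gene, so this fall was largely set in advance and is no result. Of 12 heat shock genes, Dnajb1 and Bag3 were higher over 23 tumors, and the list's median difference over 19 fell to 0.31 with Fos state, against 1.47 without. Of 18 fibroblast genes, Fbln1 was higher over 19 tumors (difference 2.17 ± 0.48, limma adjusted p = 0.023). All 18 had a positive difference there, beside 4583 of the 12040 genes tested. Their median difference was 0.76, and 0.78 with Fos state. The list's summed FPKM was 693 to 3980 in the 6 and 277 to 1784 in the 13. No gene of the macrophage, neutrophil, endothelial, adipocyte, skeletal muscle, erythroid, T and NK cell, milk protein, proliferation or interferon lists was called by limma in either comparison. At an unadjusted p of 0.05 over 23 tumors, proliferation genes had the most, with 6 of 24 lower, beside 15.2% of all genes. Macrophage genes summed to 177 to 1281 FPKM in the 7 tumors and 182 to 3497 in the 16, and their median difference over 19 tumors was -0.45, and 0.58 with Fos state. Over 19 tumors, 12 of 12 endothelial and 8 of 9 neutrophil genes had a positive difference, against 3 of 14 macrophage genes. The endothelial and neutrophil medians were 0.63 and 1.13, and 1.00 and 0.61 with Fos state. The B cell list had no gene to test. The part of these cells in the calls was not tested.

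**Figure D4:**
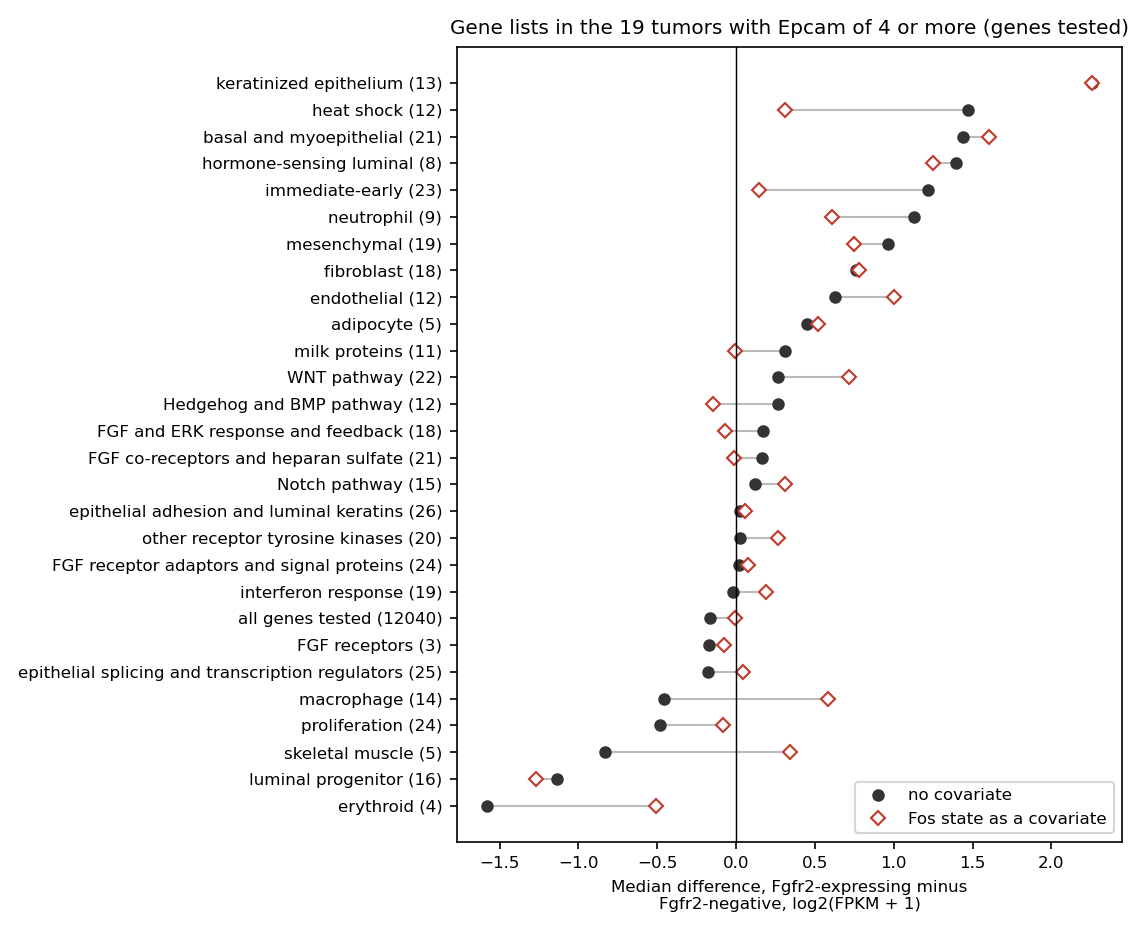
Median difference over each gene list, Fgfr2-expressing minus Fgfr2-negative, on the log2(FPKM + 1) scale in the 19 tumors with Epcam of 4 or more, for lists with at least 3 genes tested (number in brackets); black circles are the fit without and open diamonds the fit with Fos state. The keratinized list is at 2.26 in both fits, which is the difference of its single middle gene, and the basal list at 1.44 and 1.60. The immediate-early list, the kind of gene that sets the Fos state, is at 1.22 and 0.15. The macrophage list is at -0.45 and 0.58.

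Few genes kept the groups wholly apart. Over 23 tumors a single gene was higher in each Fgfr2-expressing than in each Fgfr2-negative tumor (0.00831% of genes) and a single gene lower in each (0.00831%). They were Vgll3 and Tmco1, named here after their values were seen. Vgll3, a transcriptional cofactor of TEAD proteins, was at 0.63 to 4.08 in the 7, highest in X92T, and at most 0.58 in the 16, where it was listed at 0 in 14. It entered the test only through the Fgfr2-expressing tumors, so its separation is a description. Tmco1, a calcium channel gene of the endoplasmic reticulum, was at 2.13 to 2.97 in the 7 and 3.01 to 4.29 in the 16, a difference of -0.93 ± 0.17 (limma adjusted p = 0.016). Over the 19 tumors 9 genes were wholly higher (0.0748%) and 10 wholly lower (0.0831%). Mreg, which encodes the organelle transport protein melanoregulin, had the widest gap of the 9, at 1.16 to 3.04 in the 6 against 0 to 0.66 in the 13, and its difference of 1.89 ± 0.26 had the lowest adjusted p of that fit, 0.0030. Outside those tumors it did not hold, since Mreg was listed at 0 in X92T and at 2.96 in X738T, and its adjusted p over 23 tumors was 0.063. Like Vgll3, Mreg entered the test only through Fgfr2-expressing tumors, so its gap is a description.

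The genes most like Fgfr2 across the 19 tumors were chiefly those of the 3 tumors with the most of it. The 10 highest Pearson's r belonged to Dsc3 (0.96), Col17a1 (0.95), Irx4 (0.92), Krtdap (0.92), Ror2 (0.91), Elovl4 (0.91), Snai2 (0.90), Gm5478, Tmem158 (both 0.88) and Mreg (0.88), of 11889 genes whose median r was -0.06. Over all 23 tumors 8 of the 10 were again among the 10 highest. Dsc3, a desmosomal cadherin gene, was at 3.71, 3.78 and 3.72 in X149T2, X731T and X1515T and listed at 0 in each of the other 20 tumors. Irx4, a homeobox gene, was at 2.01, 3.94 and 3.56 in the same tumors and listed at 0 in the rest. These coefficients describe a pattern set by 3 tumors, and neither Dsc3 nor Irx4 passed the comparison of the groups (limma adjusted p = 0.063 and 0.080 over 19 tumors).

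The Fgfr2-expressing tumors thus differed among themselves. X149T2, X731T and X1515T combined high Fgfr2 with Krt5 at 8.0 or more, Trp63 at 4.53 or more and Elf5 at 4.44 or more. X154T had high keratins, with Krt14 at 9.84, but Trp63 at 2.74, Elf5 listed at 0 and Myc at 10.28. X1418T, with Fgfr2 at 1.37, had Krt5 at 1.32 and Trp63 and Col17a1 listed at 0. Without the 3 tumors with the highest Fgfr2, the other 4 against the 16 gave 31 genes higher and 28 lower, 22 and 19 of them among the 98 and 123. The median difference of those 98 genes was then 1.5 and of the 123 -1.07. Those genes were picked with the same tumors in the comparison, so these medians are a description.

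Genes beside Fgfr2 on chromosome 7 were examined, 10 tested genes on each side from 125 to 2012 kb away. The 3 nearest, Ate1, Nsmce4a and Tacc2, differed by -0.11, -0.29 and 0.73 over 23 tumors, and Wdr11, the nearest on the other side, by -0.09, and none of these passed. Of the 20, 12 had a positive difference in each comparison, beside 4336 over 23 tumors and 4583 over 19 of all 12040 genes. The median difference of the 20 was 0.27 over 23 tumors and 0.22 over 19, beside -0.19 and -0.16 over all genes. Without the 3 tumors with the highest Fgfr2 it was -0.0031 over 23 tumors, beside -0.22 over all genes. Of all genes, 0.814% were called higher over 23 tumors and 1.02% over 19. Bag3, a heat shock cochaperone gene, was the 1 gene called in either comparison, with 5.78, 7.14 and 7.34 as lowest, median and highest levels in the 7 and 4.06, 5.21 and 6.67 in the 16 (difference 1.56 ± 0.32, limma adjusted p = 0.022). Htra1 had the largest difference over 19 tumors, 1.74 ± 0.46 (limma adjusted p = 0.055), and was highest of all in 3 Fgfr2-negative tumors with Epcam under 4, at 7.6 to 8.96.

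**Figure D5:**
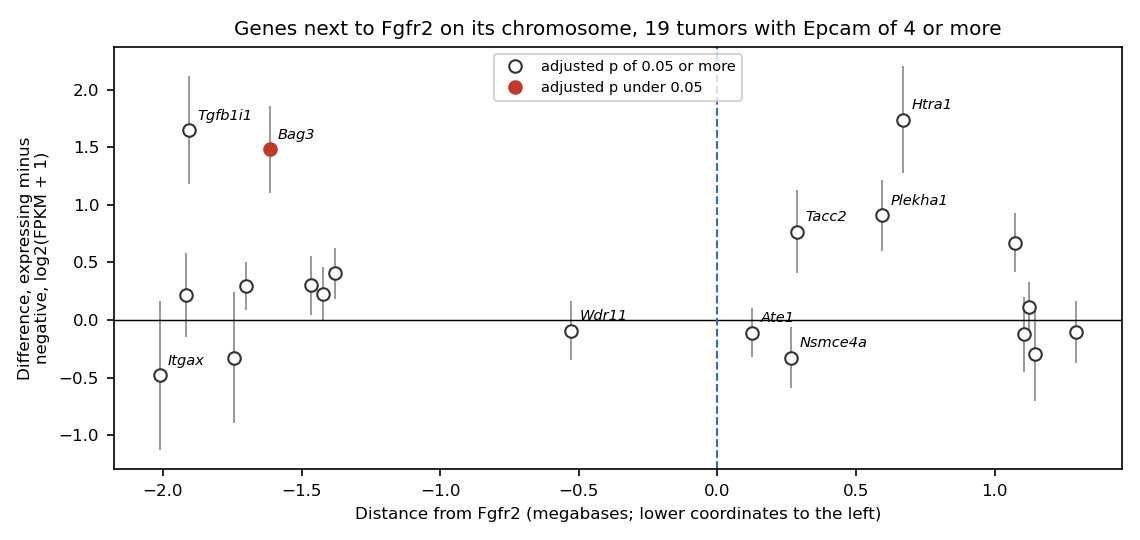
Difference between Fgfr2-expressing and Fgfr2-negative tumors, on the log2(FPKM + 1) scale with its standard error, for the 20 tested genes nearest to Fgfr2 on its chromosome, against distance in megabases, in the 19 tumors with Epcam of 4 or more. Of the 3 genes closest to Fgfr2 (dashed line), Ate1 and Nsmce4a lie at -0.11 and -0.33 and Tacc2 at 0.77, and the filled point is Bag3, at 1.48.

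In a pair of cases an Fgfr2-expressing and an Fgfr2-negative tumor shared a title number. Between X1310T2 and X1310T1, 119 of the 123 genes called higher over 19 tumors were higher in the Fgfr2-expressing tumor and 106 of the 107 called lower were lower. Between X149T2 and X149T1 the numbers were 97 of 123 and 96 of 107. Krt5 was 3.41 higher in X1310T2 than in X1310T1, and 4.72 higher in X149T2 than in X149T1, on the log2 scale. These tumors took part in the calls, so the counts describe the calls and are no test. A shared number is all that the labels give, and nothing in them says that any of the 23 tumors came from separate mice, so each p covers only how these samples vary.

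The counts of calls moved with single tumors. Over 23 tumors, calls fell to 13 higher and 13 lower without X1515T, 36 and 18 without X1310T2, 41 and 69 without X154T, 48 and 70 without X731T and 50 and 52 without X1418T. They were 235 and 405 without X149T2, and lower calls were 43 without X92T. Of the Fgfr2-negative tumors, leaving out X4351T gave 42 and 37, X2265T 52 and 48, X437T 53 and 47, X493T1 52 and 49, X493T2 57 and 52, X606T 59 and 48 and X1310T1 65 and 76. Lower calls alone moved by over 1.5 times without X520T, at 66, X738T, at 68, X149T1, at 74, and X153T, at 240. Over 19 tumors, higher and lower calls were 18 and 10 without X1515T, 62 and 18 without X1310T2, 34 and 23 without X154T, 307 and 356 without X149T2 and 72 and 59 without X4351T. Higher calls were 81 without either X493T1 or X493T2, and lower calls 69 without X606T and 201 without X153T.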

How the data were processed

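Whole-tumor RNA of 23 frozen tumors was sequenced paired-end from NEBNext Ultra libraries. The authors deposited log2(FPKM + 1) values for 14535 gene symbols in 1 table. The submitters' processing notes name Trimmomatic 0.35, TopHat2 2.0.13 on mm10 and Cufflinks 2.2.1; the study's methods name another TopHat release. FPKM keeps no counts, so depth is unknown. No source used here states strandedness, so overlapping genes were not told apart.

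The 12040 genes with mean FPKM of 1 or more, Fgfr2 left out, were tested with limma 3.58.1 (R 4.3.3; trend, two-sided, Benjamini-Hochberg at 0.05), on a pseudocount of 1, and the fits were tested on simulated data. The study used another test for its own subgroups, which needs counts. Thresholds were 4 for Epcam and 6.5 for Fos. Named genes are the 10 largest differences in each direction per comparison, all FGF receptors, ligands and response genes, neighbours and genes most like Fgfr2, up to 4 members of each other list by smallest p, and defining markers. Groups, members and lists were chosen with earlier results of these data known. Coordinates are RefSeq on GRCm38.p6, the assembly of mm10, with 99.6% of symbols matched. Some genes that the rule names are not reported here. Alternatives changed the pseudocount, filter, scaling, threshold, covariates and tumors.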

Additional observations from a re-analysis of the deposited data

Results flagged for a closer look

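Of 93 named genes examined in the 7 Fgfr2-expressing tumors, 9 had a single tumor far from the other 6 by Dixon's criterion (a gap over 0.568 of the range). Chance gives about 1 in 20 only for normally distributed values. That rate does not cover genes such as Scube1 and Fgfr4, listed at 0 in the other 6 tumors. X1418T was apart with the highest level of Prtn3 (0.893, next 0.189), Scube1 (2.78, others listed at 0) and Fgfr4 (1.06, others listed at 0). X92T had the highest Fgfr1 (8.50, next 6.95) and Fgf18 (0.377, next 0.102). X149T2 had the highest Fgf11 (0.827, next 0.082) and the lowest Fosl1 (1.16, next 4.13). X154T had the highest Myc (10.28, next 6.32), and X1515T the highest Plekha1 (5.56, next 4.40).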

How the results depend on the processing

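No named gene that was called changed sign under any setting run, but most lost their call under some. The settings reuse the tumors in which the genes were called, so a kept sign is no test. Higher and lower calls over 23 tumors (98 and 123 as reported) were 40 and 34 with the T1 tumor of each title number, 16 and 2 with an Fgfr2 threshold of 3 FPKM, 47 and 10 with Fgfr2 as a continuous predictor, 178 and 290 with Epcam as a covariate, and 0 and 0 both with Fos state as a covariate and within tumors with Fos of 6.5 or more. Higher calls were 47 with a pseudocount of 0.1, and lower calls 32 after rescaling without short non-coding RNA genes and 59 with medians centred. Over 19 tumors (123 and 107) the counts were 66 and 24 with T1 tumors, 48 and 2 with the threshold of 3 FPKM, 58 and 4 with the continuous predictor, 1 and 0 with Fos state and 0 and 0 within high Fos, and lower calls were 57 after rescaling. Settings chosen after seeing the data gave 21 and 19 over 23 tumors, and 24 and 19 over 19, with the T2 tumor of each title number, and 31 and 28 over 23 without the 3 tumors with the highest Fgfr2. Leaving out single tumors gave 13 to 235 higher and 13 to 405 lower over 23, and 18 to 307 and 10 to 356 over 19; the removals of Fgfr2-negative tumors were also chosen after seeing the data. With no filter, with a robust variance model and in the settings not named, counts stayed within 1.5 times. The cause of these shifts was not tested. Groups of 7 and 16 or 6 and 13 tumors, an unknown depth and values listed at 0 limit all results, and Fos state cannot be told apart from Fgfr2 among tumors with low Fos, since none of the 8 was Fgfr2-expressing.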
